A study of Mus musculus with 30 samples.

Results

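The expression of 9 genes of the myostatin, follistatin and activin pathway was followed in 2 skeletal muscles (gastrocnemius and diaphragm) and in the heart and liver of Mtm1-/y mice, the knock-out model of X-linked myotubular myopathy, and of their wild-type (WT) littermates. The genes were chosen by name, for their place in the pathway, from the 36103 genes of the count table: the ligands Mstn, Gdf11, Inhba and Inhbb, the antagonists Fst and Fstl3, and the receptors Acvr2a, Acvr2b and Acvr1b. All mice were males on the 129Pas background, taken at 5 weeks. The 30 poly(A) RNA libraries comprised 4 WT and 4 Mtm1-/y samples of gastrocnemius and of heart, 4 and 3 of diaphragm, and 3 and 4 of liver. In these knock-out mice the lack of myotubularin concerned every cell type. Each tissue was sequenced whole, so fewer cells of a type cannot be told apart from less RNA per cell. The question put to these genes was how the level of each one differed between genotypes within a tissue, and between tissues in WT mice.

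Myostatin, the product of Mstn, is a secreted member of the TGF-beta superfamily that is made mainly by skeletal muscle and limits its growth. Myostatin, its close relative GDF11 and the activins, which are dimers of the Inhba and Inhbb products, bind the type II receptors encoded by Acvr2a and Acvr2b, recruit a type I receptor such as ALK4, encoded by Acvr1b, and have SMAD2 and SMAD3 phosphorylated. Follistatin (Fst) and follistatin-like 3 (Fstl3) are secreted proteins that bind these ligands and keep them from their receptors.

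The sequences upstream of Mstn, Gdf11 and Acvr1b are shown because Mstn and Acvr1b were the members that fell in gastrocnemius, and Gdf11 is the closest relative of Mstn in the set. They are the 250 bases before the annotated start in RefSeq (GRCm38.p6), written 5' to 3' on the strand of the gene. A window was at hand for 8 of the 9 members, not for Fst. Capitals mark E-boxes (CANNTG) and SMAD boxes (CAGAC or its complement GTCTG), searched on both strands. CANNTG is a broad pattern that takes in sites of myogenic factors such as MyoD and of other factors. Mstn lies at chr1:53061390-53061639 on the plus strand, Gdf11 at chr10:128891719-128891968 on the minus strand, and Acvr1b at chr15:101173822-101174071 on the plus strand.

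Mstn: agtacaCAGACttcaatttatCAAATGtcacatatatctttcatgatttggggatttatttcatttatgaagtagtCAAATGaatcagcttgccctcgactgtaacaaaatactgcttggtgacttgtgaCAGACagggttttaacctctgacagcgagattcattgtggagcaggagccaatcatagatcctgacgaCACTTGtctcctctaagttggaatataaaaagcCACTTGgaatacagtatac

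Gdf11: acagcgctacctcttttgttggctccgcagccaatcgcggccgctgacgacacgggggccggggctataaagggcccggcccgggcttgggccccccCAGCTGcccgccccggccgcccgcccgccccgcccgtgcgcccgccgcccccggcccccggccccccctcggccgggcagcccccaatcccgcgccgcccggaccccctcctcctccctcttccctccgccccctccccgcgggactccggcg

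Acvr1b: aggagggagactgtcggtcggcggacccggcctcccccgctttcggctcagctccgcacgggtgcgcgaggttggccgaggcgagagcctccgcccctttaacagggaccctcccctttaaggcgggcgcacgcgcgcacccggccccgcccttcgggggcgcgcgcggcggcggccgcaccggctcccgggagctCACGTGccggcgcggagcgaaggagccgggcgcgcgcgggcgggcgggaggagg

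The Mstn window held 4 E-boxes and 2 SMAD boxes in a sequence of 38.4% GC. The Gdf11 window held 1 E-box and no SMAD box and was 81.2% GC, and the Acvr1b window likewise held 1 E-box and no SMAD box and was 78.8% GC. Among all 32851 RefSeq windows of this length, 66.2% held an E-box and 42.2% a SMAD box, with a median of 1 and 0 matches. A match of letters describes the sequence and is not a measured binding site.

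Before the members were examined, the targeted gene was checked. Within each tissue, the highest Mtm1-/y library was below the lowest WT library in Mtm1. Its mean was 19.5 ± 0.789 CPM (counts relative to the library total, SD, n = 4) in WT and 4.65 ± 0.583 (n = 4) in Mtm1-/y gastrocnemius. The log2 fold changes of Mtm1 were -2.07 in gastrocnemius, -2.26 in diaphragm, -2.59 in heart and -1.60 in liver. By edgeR the adjusted p was 2.1e-05, 0.027, 2.6e-05 and 0.37, and by DESeq2 the liver value was 1.2e-06. Library totals ranged from 24873817 to 44289343 counts. Summed cardiomyocyte markers were 49294 to 71909 CPM in WT heart, and summed hepatocyte markers 128001 to 145782 CPM in WT liver. The satellite cell marker Pax7 had no read in any library of either tissue. Some libraries stood apart in cell content. Hepatocyte markers summed to 25055 to 37906 CPM in WT diaphragm 1, 2 and 4 and 47496 in Mtm1-/y diaphragm 2, against 477 to 2897 in the other 3 diaphragms. The atrial light chain Myl7, singled out after its values were seen, was at 4972 CPM in WT heart 4, 704 to 1276 in WT heart 1 and 3 and Mtm1-/y heart 2, and 1.29 to 45.6 in the other 4 hearts. Results that touch these libraries are given with those values.

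In WT mice the members were spread very differently over the tissues. Levels were compared between genes and tissues as RPKM, which divides a CPM scaled over all 30 libraries by exon length in kilobases. The CPM levels printed in this text were scaled within each tissue, so they compare libraries of the same tissue only. Mstn was the most abundant member in gastrocnemius, at 46.8 ± 10.6 RPKM (SD, n = 4), and stood at 17.0 ± 5.11 in diaphragm and 0.533 ± 0.361 in heart. In liver only 1 read of Mstn was found over the 3 WT libraries. The difference between gastrocnemius and diaphragm was 1.50 on the log2 scale (SE 0.35, edgeR adjusted p = 0.0023), and that between gastrocnemius and heart was 6.48 (SE 0.44). Gdf11 shared this order, with 4.05 ± 0.920 RPKM in gastrocnemius, 0.751 ± 0.247 in diaphragm, 0.542 ± 0.125 in heart and at most 1 read in a WT liver library. Diaphragm and heart were not told apart in Gdf11 by edgeR (0.47, SE 0.25, adjusted p = 0.13), but were with the replicate number as a block (0.45, adjusted p = 0.042).

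The activin subunits had another order. Inhba, which encodes the subunit of activin A, was highest in liver at 4.27 ± 0.815 RPKM (n = 3) and lowest in gastrocnemius at 0.292 ± 0.0687. Diaphragm (1.25 ± 0.970) and heart (0.872 ± 0.394) lay between them and did not differ in Inhba (log2 difference 0.53, SE 0.51, edgeR adjusted p = 0.40). WT diaphragm 1, 2 and 4, with summed hepatocyte markers of 25055 to 37906 CPM, were at 1.09, 1.02 and 2.60 RPKM of Inhba. WT diaphragm 3, at 477 CPM of these markers, was at 0.284 RPKM. The part of hepatocyte transcripts in the diaphragm level of Inhba was not tested. Inhbb, the subunit of activin B, was lowest in gastrocnemius at 0.316 ± 0.0860 RPKM and highest in diaphragm at 0.904 ± 0.310. Heart (0.581 ± 0.184) and liver (0.564 ± 0.0756) were level in Inhbb, with a log2 difference of 0.08 (SE 0.31, edgeR adjusted p = 0.83), and diaphragm and heart were near the threshold in it (adjusted p = 0.070 by edgeR and 0.046 by limma voom).

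Of the antagonists, Fst was higher in both skeletal muscles than in the other tissues. It stood at 1.69 ± 0.273 RPKM in gastrocnemius and 1.99 ± 0.434 in diaphragm, which did not differ (edgeR adjusted p = 0.51), and at 0.457 ± 0.191 in heart and 0.652 ± 0.0550 in liver (adjusted p = 0.14 between these). Fstl3 was highest in heart at 3.28 ± 2.40 RPKM, a mean pulled up by WT heart 4 at 6.86. The difference between diaphragm and heart in Fstl3 was -1.44 on the log2 scale (SE 0.38, edgeR adjusted p = 0.0055) and -0.71 without WT heart 4 (adjusted p = 0.019). Diaphragm (1.20 ± 0.238) and gastrocnemius (0.838 ± 0.180) did not differ in Fstl3 (adjusted p = 0.30 by edgeR), and liver was lowest at 0.199 ± 0.0659.

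The type I receptor Acvr1b was the next most abundant member in gastrocnemius after Mstn. It stood at 17.3 ± 2.02 RPKM there, against 5.24 ± 0.725 in heart, 4.58 ± 0.447 in diaphragm and 4.05 ± 0.157 in liver. Diaphragm did not differ in Acvr1b from heart (edgeR adjusted p = 0.15) or from liver (adjusted p = 0.11). Acvr2a was at 8.92 ± 0.425 RPKM in gastrocnemius, 6.09 ± 0.0824 in liver, 4.53 ± 0.421 in heart and 4.39 ± 0.435 in diaphragm, and only the last pair did not differ (edgeR adjusted p = 0.70). The other type II receptor, Acvr2b, was lower than Acvr2a in all 4 tissues. Its means were 0.743 ± 0.0448 RPKM in gastrocnemius, 0.565 ± 0.138 in liver, 0.450 ± 0.0705 in diaphragm and 0.268 ± 0.112 in heart. Neighbours in that order were not distinguished in Acvr2b between gastrocnemius and liver (adjusted p = 0.12) or liver and diaphragm (adjusted p = 0.36, edgeR).

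Differences between WT tissues were common over the whole table, so the count of members is given beside it. All 9 members differed between gastrocnemius and heart, where 61.3% of all genes tested did, and 8 of 9 between gastrocnemius and liver, where 79.5% did. Between gastrocnemius and diaphragm 7 members differed, against 54.4% of all genes. Inhba was among these 7, with the uneven hepatocyte markers of the WT diaphragms given above. Between diaphragm and heart 4 did (Mstn, Fst, Fstl3 and Acvr2b), against 51.7%. Between liver and diaphragm 7 differed, against 76.1%, and between liver and heart 7, against 76.4%. The diaphragm and liver count includes Inhbb at an edgeR adjusted p of 0.049, which DESeq2 (0.068), limma voom (0.087) and the replicate block (0.12) did not call. Inhbb between gastrocnemius and liver, at 0.039, was not called by limma voom either (0.060). The plot of RPKM in WT libraries shows each member's order of tissues.

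**Figure D1:**
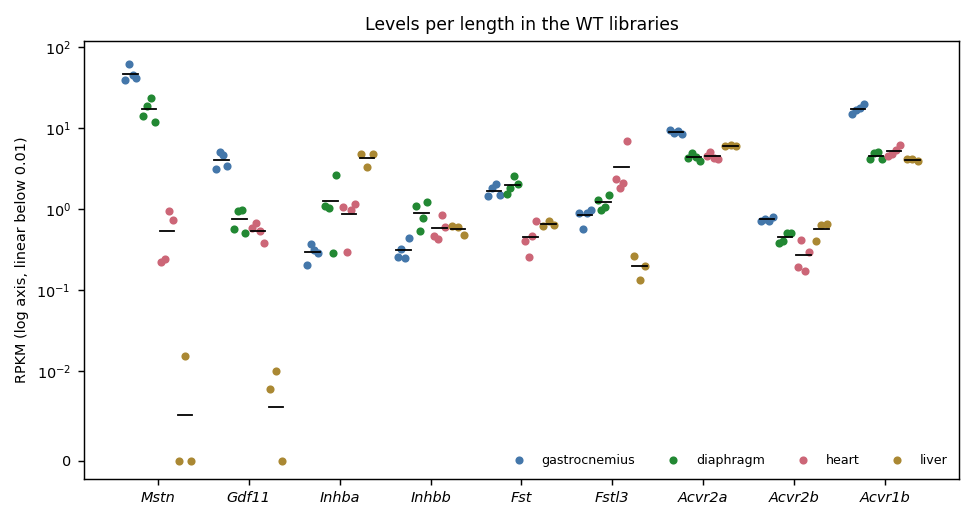
Levels of the 9 members in the 15 WT libraries, in RPKM on a log axis that is linear below 0.01. Each point is a library and each bar a group mean (n = 4, liver n = 3). Mstn ran from 46.8 RPKM in gastrocnemius to 0.533 in heart, and Inhba from 0.292 in gastrocnemius to 4.27 in liver.

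In Mtm1-/y gastrocnemius the ligand Mstn fell, its antagonist Fst rose and the receptor Acvr1b fell. The other 6 members did not pass the test. Mstn and Fst are genes that the study itself singled out in these samples, so their direction is not independent evidence. The study also reported the fall of Mstn and the rise of Fst by RT-qPCR, done on tibialis anterior, gastrocnemius and diaphragm. Mstn was at 96.6, 154, 112 and 101 CPM in WT libraries 1 to 4 and at 30.0, 36.9, 45.2 and 29.1 CPM in Mtm1-/y libraries 1 to 4. The highest Mtm1-/y library was therefore below the lowest WT library by more than the range of the Mtm1-/y group. The mean was 116 ± 26.4 CPM in WT and 35.3 ± 7.44 in Mtm1-/y, or 30.4% of WT by the fit (log2 fold change -1.72, SE 0.18, edgeR adjusted p = 0.00026).

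Fst moved the other way. Its levels were 6.18, 7.64, 8.57 and 6.12 CPM in WT libraries and 26.2, 24.3, 19.9 and 33.4 CPM in Mtm1-/y libraries, with no overlap. The mean rose from 7.13 ± 1.19 to 25.9 ± 5.60 CPM, 3.64-fold by the fit (log2 fold change 1.86, SE 0.17, edgeR adjusted p = 0.00015). The Fst gene shares 115 exon bases with the antisense gene Gm47040, and the strand setting of the counting is not given in the sources used here.

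Acvr1b was lower in all 4 Mtm1-/y gastrocnemius libraries than in any WT library. The levels were 60.1, 68.8, 73.0 and 78.6 CPM in WT and 36.9, 31.9, 40.8 and 59.1 CPM in Mtm1-/y, and Mtm1-/y library 4 sat just below WT library 1. The mean fell from 70.1 ± 7.78 to 42.2 ± 11.8 CPM, or 60.2% of WT (log2 fold change -0.73, SE 0.17, edgeR adjusted p = 0.011).

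The remaining ligands gave smaller values. Gdf11 averaged 15.1 ± 3.49 CPM in WT and 19.7 ± 5.20 in Mtm1-/y gastrocnemius, with overlapping libraries (log2 fold change 0.38, SE 0.21, edgeR adjusted p = 0.19). Inhbb averaged 1.23 ± 0.323 and 2.01 ± 0.730 CPM, a log2 fold change of 0.71 (SE 0.29) that missed the threshold at an edgeR adjusted p of 0.088. Inhba was low in both genotypes, at 1.71 ± 0.404 and 1.80 ± 0.520 CPM (adjusted p = 0.85). The antagonist Fstl3 was as low, at 1.88 ± 0.399 and 1.95 ± 0.266 CPM (edgeR adjusted p = 0.88), and shares 1157 exon bases with Prss57 on the other strand.

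Both type II receptors gave log2 fold changes close to 0 in gastrocnemius. Acvr2a was at 46.5 ± 2.53 CPM in WT and 46.6 ± 8.29 in Mtm1-/y (0.00, SE 0.12, edgeR adjusted p = 0.99), and shares 446 exon bases with Orc4 on the other strand. Acvr2b was at 2.68 ± 0.139 and 2.57 ± 0.134 CPM (-0.06, SE 0.13, adjusted p = 0.78). Differences larger than these standard errors could also go uncalled, as Inhbb did at 0.71 (SE 0.29).

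Changes were frequent in gastrocnemius as a whole, with 14.1% of the 15456 genes tested higher and 14.9% lower in Mtm1-/y, against 1 and 2 of the 9 members. The Mtm1-/y libraries did not overlap the WT libraries for 3 of the 9 members and for 30.7% of all genes. DESeq2 called the same 3 of 9 members, against 25.7% of all genes. The median log2 fold change was 0.05 over the members and 0.02 over all genes tested. The plot of member levels shows the 3 separations beside the overlap of the other members.

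**Figure D2:**
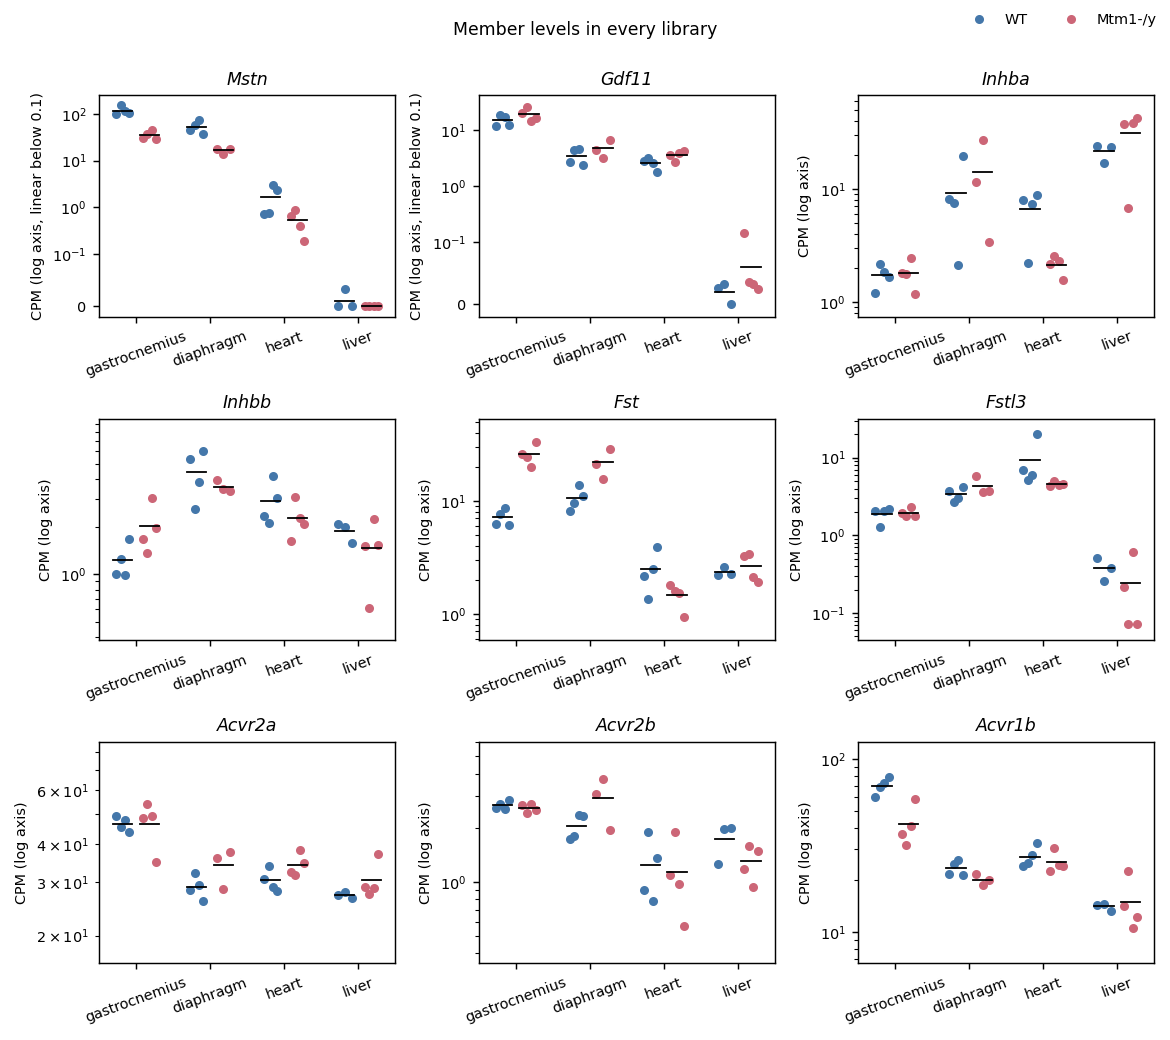
CPM of each member in every library, on log axes (linear below 0.1 for Mstn and Gdf11). The CPM were scaled within each tissue, so heights compare genotypes within a tissue and not tissues with each other. Blue points are WT and red points Mtm1-/y libraries, and bars are group means. In gastrocnemius Mstn was at 96.6 CPM or more in WT and 45.2 or less in Mtm1-/y, and Fst at 8.57 or less in WT and 19.9 or more in Mtm1-/y.

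Cell type markers moved in the same gastrocnemius libraries. Of 7 skeletal myofibre markers 5 fell and 2 rose, and their sum was 170439 to 201153 CPM in WT and 110206 to 118550 in Mtm1-/y. All 8 genes of denervated fibres rose (80.1 to 111 CPM in WT and 244 to 546 in Mtm1-/y), as did all 7 macrophage markers (34.2 to 58.0 and 88.2 to 108 CPM). Of 8 fibroblast markers 5 rose, with overlapping sums of 2195 to 4747 and 2952 to 6109 CPM, and of 8 white adipocyte markers 5 rose. Of 6 satellite cell markers 2 fell. Of the 4 cardiomyocyte markers tested 2 rose and 1 fell. Their list summed to 6294 to 7171 CPM in WT and 584 to 2292 in Mtm1-/y, most of it the actin gene Actc1, whose mean was 6542 and 1456 CPM, while its atrial markers Nppa and Myl7 were at or near 0. Mesothelial markers summed to 0.110 to 0.362 CPM in WT and 2.99 to 10.8 in Mtm1-/y, and the 1 of 5 with enough reads to be tested, Msln, rose. The part of these markers in the results for Mstn, Fst and Acvr1b, and for the other pathway genes below, was not tested.

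Among the other genes of the pathway, 76 of which were in the table, 70 were tested in gastrocnemius. Of these 22 (31.4%) rose and 11 (15.7%) fell, beside 14.1% and 14.9% of all genes, and their median log2 fold change was 0.23. The lists were chosen with earlier results of these data known, so these shares are not independent evidence. Of 5 further ligands the TGF-beta genes Tgfb3 (46.6 ± 2.69 to 64.1 ± 7.12 CPM, log2 fold change 0.46, SE 0.09) and Tgfb1 (5.29 ± 0.886 to 11.1 ± 3.20 CPM, 1.06, SE 0.21) rose and none fell. Of 11 extracellular antagonists and processing factors 3 rose and 2 fell. Igsf1, a membrane glycoprotein linked to activin signalling, rose from 2.78 ± 0.638 to 8.45 ± 2.06 CPM (1.60, SE 0.22), and the follistatin relative Fstl1 from 117 ± 23.3 to 214 ± 24.0 CPM (0.87, SE 0.14). Wfikkn2, a secreted binding protein of myostatin and GDF11, fell from 12.3 ± 1.55 to 6.55 ± 1.05 CPM (-0.91, SE 0.14), and so did the proprotein convertase Pcsk6 (20.4 ± 2.20 to 14.4 ± 2.52 CPM, -0.50, SE 0.13).

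In an edgeR fit of all 30 libraries the calls on Tgfb3 (adjusted p = 0.33), Fstl1 (0.073) and Pcsk6 (0.089) were lost. Of 5 other receptors and coreceptors 2 rose. The type I receptor Acvr1c, which also serves activin B, rose from 0.650 ± 0.420 to 2.28 ± 0.296 CPM, a log2 fold change of 1.81 (SE 0.36, edgeR adjusted p = 0.0048). Acvr1c is known for its expression in fat, and 5 of 8 white adipocyte markers rose in these libraries while none fell. The part of fat in the rise of Acvr1c was not tested. Tgfbr2, the type II receptor of TGF-beta, rose from 43.5 ± 8.11 to 55.8 ± 1.04 CPM at an edgeR adjusted p of 0.048, and passed in 2 of the 8 fits that left out a library. Of 9 SMAD2/3 signalling genes 5 fell and none rose, with a median log2 fold change of -0.24. They were Zfyve9, an anchor of receptor SMADs (-0.48, SE 0.06), the phosphatase Ppm1a (-0.45, SE 0.08), Smad3 itself (-0.64, SE 0.17), the shared partner Smad4 (-0.24, SE 0.06) and, named after its value was seen, the ubiquitin ligase Smurf2 (-0.24, SE 0.08). Smad3 stood at 208 ± 25.1 CPM in WT and 134 ± 34.7 in Mtm1-/y. Smad3 passed in 5 of 8 fits that left out a library, missing the threshold without WT 2, WT 4 or Mtm1-/y 1 (edgeR adjusted p of 0.052 to 0.059), and Smad4 in 5 of 8 too, missing it without WT 2, WT 3 or Mtm1-/y 3 (0.057 to 0.061). In an edgeR fit of all 30 libraries the calls on Smad3 (adjusted p = 0.055) and Tgfbr2 (0.30) were lost.

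Of 9 known SMAD2/3 target genes 5 rose and 1 fell. Ltbp2, which encodes a matrix protein, rose from 0.816 ± 0.0675 to 7.48 ± 3.72 CPM, a log2 fold change of 3.19 (SE 0.36). The corepressor Tgif1 rose from 3.95 ± 0.653 to 13.9 ± 3.89 CPM (1.82, SE 0.21), and the cell cycle inhibitor Cdkn1a from 60.4 ± 18.96 to 183 ± 57.8 CPM (1.60, SE 0.26). Ski, another corepressor, fell from 63.2 ± 0.416 to 53.1 ± 2.62 CPM (-0.25, SE 0.06), a call lost in the edgeR fit of all 30 libraries (adjusted p = 0.070). Of 22 genes of the parallel BMP arm 7 rose and 2 fell. Its ligand Gdf5 went from 0.171 ± 0.0349 to 6.17 ± 4.19 CPM (5.14, SE 0.57), its ligand Gdf6 from 0.268 ± 0.0830 to 1.51 ± 0.217 (2.46, SE 0.26), its target Id2 from 2.87 ± 0.508 to 9.47 ± 0.972 (1.72, SE 0.14) and the ubiquitin ligase Fbxo30 from 18.5 ± 1.60 to 33.0 ± 4.96 (0.83, SE 0.11).

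Of 9 effectors of muscle growth and breakdown 3 rose and 1 fell. The muscle ubiquitin ligases Fbxo32 (139.5 ± 46.7 to 320.5 ± 46.3 CPM, log2 fold change 1.20, SE 0.22) and Trim63 (254 ± 56.4 to 471 ± 82.0 CPM, 0.89, SE 0.17) rose, as did the kinase Akt2 (91.6 ± 7.20 to 121 ± 10.9 CPM, 0.40, SE 0.08). The ribosomal S6 kinase gene Rps6kb1 fell from 50.9 ± 3.005 to 39.3 ± 2.09 CPM (-0.37, SE 0.07). The plot of the other pathway genes shows the 5 called SMAD2/3 signalling genes below 0 and most of the target genes above it.

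**Figure D3:**
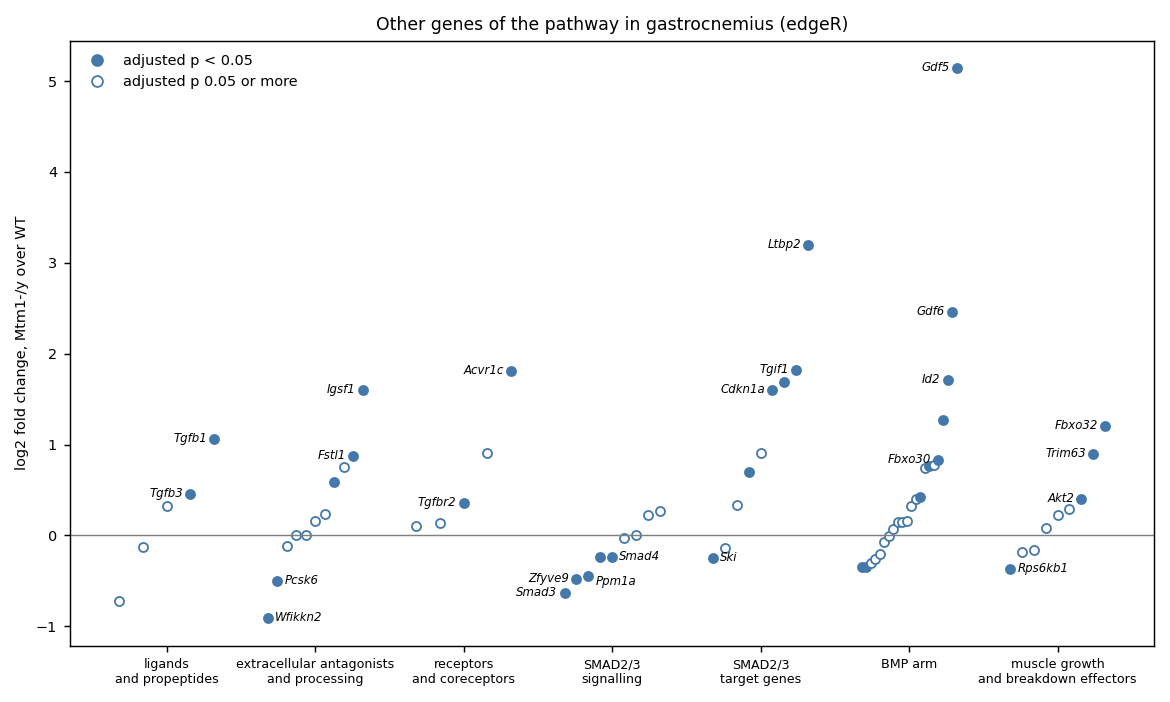
Log2 fold changes (Mtm1-/y over WT, edgeR) of the 70 other pathway genes tested in gastrocnemius, by list and in rising order within each list. Filled points had an adjusted p under 0.05, and the named ones are those of the text. The values ran up to 5.14 for Gdf5 and, among the called genes, down to -0.91 for Wfikkn2.

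In the diaphragm Mstn and Fst separated the genotypes in the same directions, but no member passed edgeR's test there. Mstn was at 43.9, 57.5, 73.9 and 37.7 CPM in WT libraries 1 to 4 and at 17.6, 13.9 and 17.7 CPM in Mtm1-/y libraries 1, 2 and 4. The groups did not overlap, and the means were 53.3 ± 16.1 and 16.4 ± 2.167 CPM (log2 fold change -1.70, SE 0.25, edgeR adjusted p = 0.26, DESeq2 adjusted p = 5.3e-07). Mstn passed by DESeq2 in all 7 fits that left out a library.

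Fst was at 8.11, 9.60, 13.7 and 10.9 CPM in WT and 21.4, 15.6 and 29.0 CPM in Mtm1-/y diaphragm, again with no overlap. Its means were 10.6 ± 2.36 and 22.0 ± 6.71 CPM (log2 fold change 1.06, SE 0.25, edgeR adjusted p = 0.28, DESeq2 adjusted p = 0.0096). The DESeq2 call on Fst was kept without WT 3 or Mtm1-/y 2 and lost without WT 1, WT 2, WT 4, Mtm1-/y 1 or Mtm1-/y 4 (adjusted p of 0.051 to 0.099). Few genes were called in this tissue by edgeR, 0.0119% of the 16796 tested, where the common biological coefficient of variation was 0.394 against 0.171 in gastrocnemius. At an unadjusted p under 0.05 the members numbered 2 of 9 and all genes 1806 of 16796. DESeq2 called 1 member higher, beside 1.7% of all genes, and 1 lower, beside 0.671%. The groups did not overlap for 2 members and for 9.97% of all genes.

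Inhba was the most variable member in diaphragm. It was at 8.11, 7.44, 2.12 and 19.3 CPM in WT and at 11.4, 27.1 and 3.39 CPM in Mtm1-/y, with a log2 fold change of 0.59 (SE 0.83, edgeR adjusted p = 0.90) that became -0.32 without Mtm1-/y diaphragm 2. The summed hepatocyte markers of the same libraries were 37906, 25055, 477 and 27650 CPM in WT and 2897, 47496 and 809 CPM in Mtm1-/y. The 2 libraries with the least were lowest in Inhba and the library with the most was highest. Mtm1-/y 1, with few hepatocyte transcripts, was nevertheless above WT 1 and WT 2 in Inhba. None of the 8 hepatocyte markers differed between the genotypes by edgeR or DESeq2, and their part in the Inhba values was not tested. The other 6 members gave log2 fold changes from -0.32 for Inhbb to 0.51 for Acvr2b, with edgeR adjusted p of 0.54 to 0.79, and the median over the 9 members was 0.36 beside -0.01 for all genes.

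Of the 8 denervated fibre genes, 5 were higher in Mtm1-/y diaphragm by DESeq2 and none by edgeR. Their sum was 49.5 to 88.2 CPM in WT and 249, 97.4 and 259 CPM in Mtm1-/y 1, 2 and 4. Of 8 fibroblast markers 4 were higher by DESeq2 and none by edgeR, and their sum was 2033 to 4180 CPM in WT and 8091, 4393 and 8548 CPM in Mtm1-/y, with no overlap. Fst had the same order as both sums within the Mtm1-/y group, lowest in library 2. Summed hepatocyte markers, at 2897, 47496 and 809 CPM in Mtm1-/y 1, 2 and 4, ran in the reverse order of Fst. In WT, diaphragm 3 had the least of these at 477 CPM, beside 25055 to 37906 in the others, and the most Fst and Mstn. That order did not hold throughout, since WT 4 exceeded WT 2 in both Fst and these markers. Scaled without genes over 20 times higher in WT liver than WT gastrocnemius, Mstn was at -1.69 and Fst at 1.06 in log2 fold change. The part of all these markers in the values of Fst, of Mstn and of the pathway genes below was not tested. Of the other pathway genes none of 73 passed by edgeR, and their median was 0.09. By DESeq2 5 were higher and 2 lower, named here after their values were seen. Ltbp2 (7.64 ± 2.47 to 34.6 ± 19.1 CPM), Igsf1 (5.04 ± 1.00 to 27.4 ± 28.2), Gdf6 (0.623 ± 0.190 to 2.29 ± 1.06) and Fstl1 (157 ± 36.5 to 369.5 ± 168) were higher, as they were in gastrocnemius, and so was the matrix gene Ccn2 (58.4 ± 22.3 to 168 ± 87.1). Bmp6 (13.4 ± 1.60 to 7.26 ± 2.13 CPM) and the sarcomeric Tcap (1658 ± 264 to 1016 ± 169 CPM) were lower. Leaving out 1 library moved this DESeq2 count of 7 to between 2 (without Mtm1-/y 1) and 13 (without Mtm1-/y 2), and it fell to 4, 3 and 3 without WT 1, WT 2 and Mtm1-/y 4.

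The difference between the genotype effects of the tissues was tested in its own right, as the effect in gastrocnemius minus that in the other tissue. For diaphragm no member passed, beside 0.28% of all genes. Mstn differed by -0.01 (SE 0.32, edgeR adjusted p = 1.00) and Fst by 0.82 (SE 0.32, adjusted p = 0.32), so that a similar effect on Mstn is bounded only by that standard error. For heart 2 members passed, beside 19.8% of all genes: Fst with 2.60 (SE 0.37, edgeR adjusted p = 0.00048) and Inhba with 1.68 (SE 0.49, adjusted p = 0.027). For liver Fst alone passed, with 1.66 (SE 0.30, edgeR adjusted p = 0.0071), beside 6.34% of all genes. The Inhba difference was lost without WT gastrocnemius 1, Mtm1-/y gastrocnemius 3, WT heart 4 or Mtm1-/y heart 4 (edgeR adjusted p of 0.051 to 0.057). These hearts also varied in the atrial genes given with the heart results below, whose part in the Inhba difference was not tested.

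Acvr1b differed by -0.65 (SE 0.23) from heart, an edgeR adjusted p of 0.061 and an adjusted p of 0.023 by DESeq2 and 0.014 by limma voom, and by -0.84 (SE 0.32, edgeR adjusted p = 0.13) from liver. The Acvr1b difference from heart passed by edgeR without Mtm1-/y gastrocnemius 4 (-0.85, adjusted p = 0.0065) or WT heart 4 (-0.73, adjusted p = 0.046). The 3 contrasts share the gastrocnemius libraries and are not independent of each other. The plot of log2 fold changes places the 4 tissues side by side for each member.

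**Figure D4:**
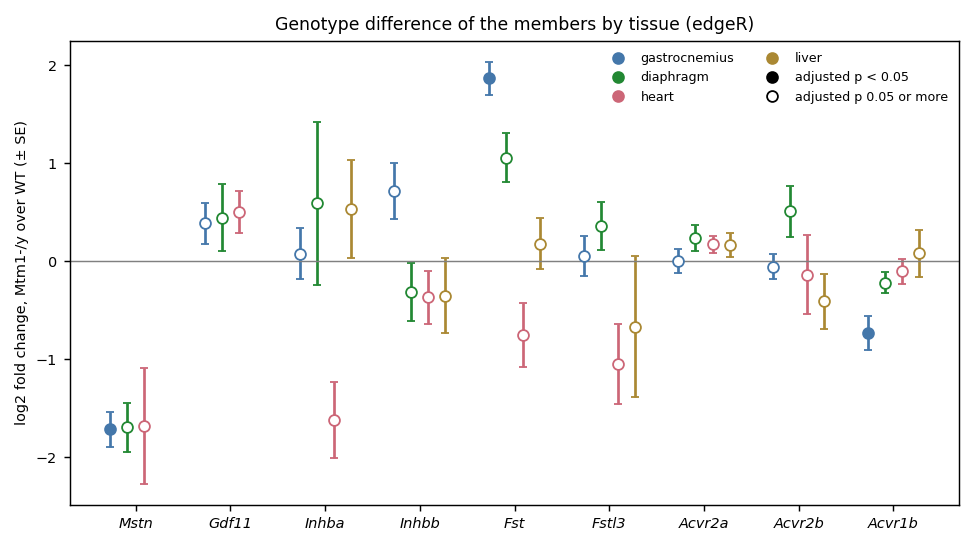
Log2 fold change (Mtm1-/y over WT, with its SE) of each member in the 4 tissues, from the edgeR fit of each tissue. Filled points had an adjusted p under 0.05, and Mstn and Gdf11 have no liver value. The filled points are Mstn (-1.72), Fst (1.86) and Acvr1b (-0.73) in gastrocnemius.

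In the heart no member passed edgeR's test, beside 0.00656% of 15238 genes, and 7 of the 9 log2 fold changes were below 0. At an unadjusted p under 0.05 the members numbered 5 of 9 and all genes 1353 of 15238. Inhba had the largest difference relative to its error. It was at 7.95, 2.19, 7.35 and 8.84 CPM in WT and at 2.171, 2.53, 2.30 and 1.54 CPM in Mtm1-/y, so the groups overlapped through WT heart 2 alone. The means were 6.58 ± 2.99 and 2.14 ± 0.422 CPM (log2 fold change -1.62, SE 0.39, edgeR adjusted p = 0.55, DESeq2 adjusted p = 0.0091). Inhba was the 1 member called by DESeq2, beside 0.352% of all genes called lower. That call was kept without WT 2 or Mtm1-/y 2 and lost without any of the other 6 hearts (adjusted p of 0.050 to 0.089), and edgeR called Inhba without WT 2 (-1.91, adjusted p = 0.018).

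Fstl3 was at 6.86, 5.14, 5.97 and 19.9 CPM in WT heart and at 4.27, 5.02, 4.39 and 4.63 CPM in Mtm1-/y heart. It was the 1 member whose groups did not overlap, beside 4.26% of all genes. The log2 fold change of -1.05 (SE 0.41, edgeR adjusted p = 0.55) was -0.38 without WT heart 4. Few Mstn reads were found in heart, with 19 to 92 reads per WT library and 5 to 22 per Mtm1-/y library. Its levels were 0.713, 0.761, 3.02 and 2.31 CPM in WT and 0.651, 0.870, 0.403 and 0.188 CPM in Mtm1-/y (-1.68, SE 0.59, edgeR adjusted p = 0.55). Fst averaged 2.47 ± 1.04 and 1.47 ± 0.370 CPM there (-0.75, SE 0.33, adjusted p = 0.55), a sign opposite to that in the skeletal muscles.

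Transcripts of other cells varied widely among these hearts. The atrial genes Nppa and Myl7, picked after their values were seen, stood at 1857, 662, 2445 and 19117 CPM and at 857, 45.6, 704 and 4972 CPM in WT hearts 1 to 4. In Mtm1-/y hearts 1 to 4 they were at 148, 3097, 629 and 152 CPM and at 4.88, 1276, 1.29 and 9.57 CPM. The WT heart with the least of both, WT 2, was the lowest WT heart in Inhba, Fstl3 and Fst but not in Mstn, and the Mtm1-/y heart with the most, Mtm1-/y 2, was the highest of its group in Inhba, Fstl3 and Mstn but not in Fst. The order did not hold over all 8 hearts, since Mtm1-/y 2 had more of both atrial genes than WT 1 and WT 3 and less Inhba, at 2.53 CPM against 7.95 and 7.35. Of 8 white adipocyte markers 6 were lower in Mtm1-/y heart by DESeq2 and none by edgeR, among them Adipoq (14.8 to 2.65 CPM) and Plin1 (13.4 to 1.57 CPM). Their sums were 349 to 550 CPM in WT and 291 to 393 CPM in Mtm1-/y. Most of that sum was Pnpla2, whose mean was 285 CPM in WT and 269 in Mtm1-/y. It therefore says little of genes such as Adipoq and Plin1. Mesothelial markers summed to 354 CPM in WT heart 4 and to 66.4 to 146 in the other WT hearts. The part of atrial, fat and mesothelial tissue in the heart values of Inhba, Fstl3, Mstn and Fst was not tested.

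**Figure D5:**
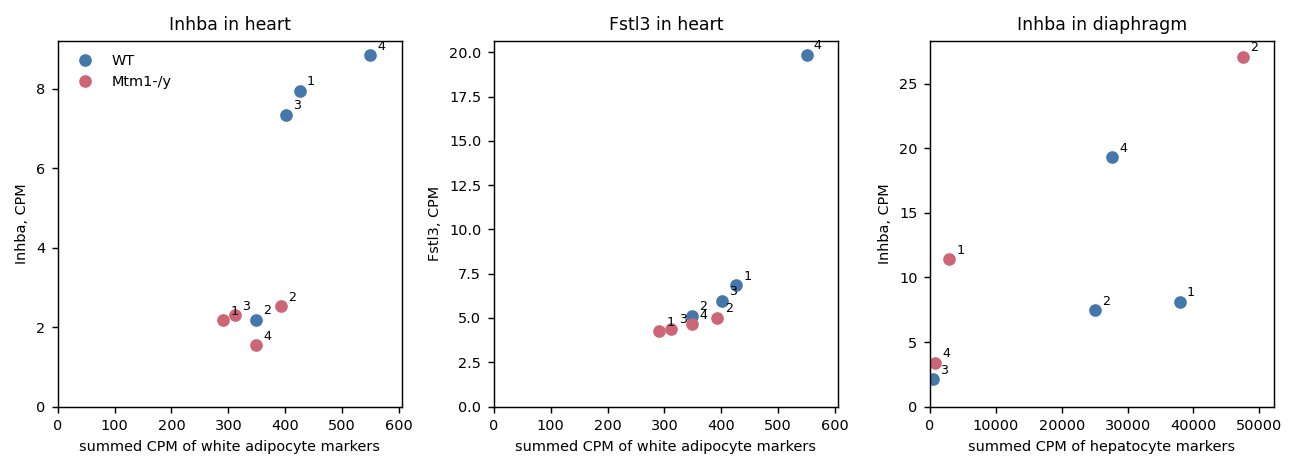
Levels of Inhba and Fstl3 in heart against the summed CPM of 8 white adipocyte markers, and of Inhba in diaphragm against that of 8 hepatocyte markers. Each point is a library, labelled with its replicate number, blue for WT and red for Mtm1-/y. WT heart 4, at 19.9 CPM of Fstl3, also had the highest marker sum at 550 CPM. Most of the white adipocyte sum in heart was Pnpla2, at a mean of 285 CPM in WT and 269 in Mtm1-/y.

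The receptors gave small values in heart. Acvr1b was at 27.3 ± 3.82 and 25.4 ± 3.60 CPM (log2 fold change -0.11, SE 0.13), Acvr2a at 30.4 ± 2.66 and 34.2 ± 2.97 CPM (0.17, SE 0.09) and Acvr2b at 1.24 ± 0.508 and 1.13 ± 0.559 CPM (-0.14, SE 0.40). Gdf11 was at 2.60 ± 0.589 and 3.68 ± 0.686 CPM (0.50, SE 0.22) and Inhbb at 2.91 ± 0.922 and 2.26 ± 0.610 CPM (-0.37, SE 0.27). None of these 5 passed by edgeR (adjusted p of 0.55 to 0.90). The median over the 9 members was -0.37, beside -0.00 for all genes.

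Of 68 other pathway genes tested in heart none passed by edgeR, and their median log2 fold change was -0.18. DESeq2 called 2 lower, named after their values were seen. The type I receptor Acvr1c, which had risen in gastrocnemius, was at 1.78 ± 1.09 CPM in WT and 0.305 ± 0.156 in Mtm1-/y heart (-2.52, SE 0.60, DESeq2 adjusted p = 0.0093), and the SMAD target Pmepa1 was at 39.2 ± 4.56 and 27.8 ± 2.13 CPM (-0.50, SE 0.10, DESeq2 adjusted p = 0.012). Acvr1c was not tested for a difference between the tissues, and is known for its expression in fat. That DESeq2 count of 2 ranged from 0 without WT 1 or Mtm1-/y 3 to 8 without WT 2.

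In the liver 7 of the 9 members had enough reads to be tested and none passed, beside 0% of 14305 genes by edgeR and 0.163% by DESeq2. At an unadjusted p under 0.05 they were 0 of 7, and all genes 606 of 14305. Mstn had 0, 1 and 0 reads in WT and 0 in each Mtm1-/y liver, and Gdf11 at most 4, so no fold is given for either. Inhba was the liver's main activin subunit among the members, at 23.9, 16.8 and 23.5 CPM in WT and at 37.0, 6.83, 38.0 and 41.9 CPM in Mtm1-/y. The 4 Mtm1-/y livers thus lay on both sides of the WT range (log2 fold change 0.53, SE 0.50, edgeR adjusted p = 0.97), and the value was 0.86 without Mtm1-/y liver 2 (adjusted p = 0.43). In Mtm1-/y liver 2 the summed macrophage markers were 45.1 CPM against 121 to 179 in the other Mtm1-/y livers, endothelial markers 56.2 against 114 to 129 and fibroblast markers 118 against 204 to 425. Their part in its low Inhba was not tested.

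The other 6 tested members gave log2 fold changes from -0.67 for Fstl3 to 0.18 for Fst in liver, each with an edgeR adjusted p of 0.97 or 0.98. No member separated the genotypes without overlap, beside 6.09% of all genes. The median of the 7 was 0.08, beside 0.01 over all genes. Of 61 other pathway genes tested in liver none passed by edgeR or DESeq2, and their median was 0.01. The related subunits Inhbc and Inhbe, which are made mainly by hepatocytes, were the most abundant further ligands. Inhbc stood at 102 ± 27.2 CPM in WT and 94.4 ± 13.4 in Mtm1-/y (-0.12, SE 0.19), and Inhbe at 51.3 ± 24.7 and 68.4 ± 28.4 CPM (0.41, SE 0.36), both with an edgeR adjusted p of 0.97.

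Over the 15 skeletal muscle libraries, each tissue centred on its mean, the genes whose log2 CPM followed Mstn most closely among 10624 ranked were Mtm1 (r = 0.962), Gm28651 (0.961) and Tmem233 (0.955). Those closest to Fst were Cilp (0.968), Uap1l1 (0.965) and Pam (0.963). The points share the 2 genotypes, so these correlations describe the separation of Mtm1-/y from WT libraries and say nothing further of the genes.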

How the data were processed

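Poly(A) RNA of whole tissues was sequenced from stranded libraries. The deposited table holds raw read counts per gene, made by the authors. The submitters' processing notes name bcl2fastq 2.17.1.14, cutadapt 1.10, STAR 2.5.3a, HTSeq 0.6.1p1 and mm10. The strand setting of the counting is not given in the sources used here. Samples were grouped by the labels, which do not say which tissues came from 1 mouse, so p-values measure the spread between these samples.

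Everything else was computed in R 4.3.3. In each tissue genes were filtered with filterByExpr (count minimum 10), scaled by TMM and tested with the quasi-likelihood F test of edgeR 4.0.16, with Benjamini-Hochberg adjustment over all genes tested. A gene rose or fell at an adjusted p under 0.05. The SE is the absolute log2 fold change over the root of F. WT tissues were compared in 1 fit of 15 libraries, and genotype effects between tissues by interaction contrasts. DESeq2 1.42.0 and limma voom 3.58.1 served as alternatives. CPM were scaled within a tissue, RPKM over all 30 libraries with GENCODE exon lengths. The code was tested on simulated data with known changes. The simulation used the same spread for every tissue, so it does not show how the tools behave at the larger spread of the diaphragm.

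Members and lists were chosen with earlier results of these data known. Named besides the members were Mtm1, up to 4 called genes per pathway list with the smallest p, or the 2 most abundant where none passed, and the 3 genes most correlated with Mstn or Fst at a mean of at least 5 CPM. In diaphragm, heart and liver 14 genes were so named, the 2 most abundant of each pathway list. Their log2 fold changes were -0.71 to 1.53, -1.03 to 0.16 and -1.22 to 0.80, and none passed edgeR.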

Additional observations from a re-analysis of the deposited data

Results flagged for a closer look

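Of 53 groups of 4 libraries, 5 had a library far from the other 3 by Dixon's criterion, which chance alone meets in about 1 of 20 groups. Acvr2a was at 37.0 CPM in Mtm1-/y liver 4, against 27.3 to 28.8 in the other Mtm1-/y livers. Fstl3 was at 1.29 CPM in WT gastrocnemius 2, against 2.03 to 2.16, and at 19.9 CPM in WT heart 4, against 5.14 to 6.86. Inhba was at 6.83 CPM in Mtm1-/y liver 2, against 37.0 to 41.9. Gdf11 was at 0.144 CPM in Mtm1-/y liver 1, against 0.0244 to 0.0361, a difference of 4 reads against 1.

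The genotype effect differed between tissues, by edgeR's test of the difference, for 2 members. Fst differed by 2.60 on the log2 scale between gastrocnemius and heart (edgeR adjusted p = 0.00048), being higher in 4 of 4 Mtm1-/y gastrocnemius libraries than in any WT one and overlapping in heart. Fst also differed by 1.66 between gastrocnemius and liver (edgeR adjusted p = 0.0071). Inhba differed by 1.68 between gastrocnemius and heart (edgeR adjusted p = 0.027), where the Mtm1-/y hearts were lower than 3 of the 4 WT hearts. The atrial gene Myl7 was at 857, 45.6, 704 and 4972 CPM in WT hearts 1 to 4. In Mtm1-/y hearts 1 to 4 it was at 4.88, 1276, 1.29 and 9.57 CPM. The part of atrial tissue in the Inhba difference was not tested.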

How the results depend on the processing

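The 3 calls among members in gastrocnemius (Mstn, Fst and Acvr1b) were kept by every other tool and fit tried and in all 8 fits without a library. With an absolute log2 fold change over 1 as well, 2 members passed there (not Acvr1b) and 12 other pathway genes. In diaphragm, 2 members passed by DESeq2 and 2 in an edgeR fit of all 30 libraries (Mstn adjusted p = 0.016, Fst 0.038), and of the other pathway genes 7 and 4. In heart 1 member and 2 other genes passed by DESeq2. Over the fits that left out a library, edgeR called 0 to 1 member in heart and DESeq2 1 to 2 in diaphragm, 0 to 3 in heart and 0 to 1 in liver. Other pathway genes numbered 23 to 33 by edgeR in gastrocnemius, 0 to 2 in diaphragm (2 without Mtm1-/y 2), and by DESeq2 2 to 13 in diaphragm and 0 to 8 in heart. The difference from heart was called for 1 to 3 members.

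Some values changed sign, most of them near 0, and Inhba in diaphragm, its WT difference between diaphragm and heart and its effect against diaphragm through 1 library. Acvr2a in gastrocnemius was -0.0021 by DESeq2, -0.0090 with all 30 libraries and -0.014 with the replicate block. By limma voom, Fst in liver was -0.0065, Acvr1b in liver -0.12, Inhbb between WT heart and liver -0.0052 (-0.054 with the replicate block) and the Inhba difference between gastrocnemius and diaphragm 0.023. Without a library the genotype effect ranged from -0.19 to 0.21 for Acvr1b and -0.32 to 0.041 for Inhbc in liver, from -0.067 to 0.13 for Acvr2a, -0.095 to 0.12 for Fstl3 and -0.095 to 0.24 for Inhba in gastrocnemius, from -0.32 to 1.24 for Inhba in diaphragm and from -0.50 to 0.15 for Acvr2b in heart. Between WT diaphragm and heart it ranged from -0.098 to 0.071 for Acvr2a and from -0.054 to 0.92 for Inhba, and between WT heart and liver from -0.14 to 0.20 for Inhbb. The differences in genotype effect ranged from -0.20 to 0.16 for Mstn, -0.27 to 0.26 for Gdf11 and -1.14 to 0.39 for Inhba against diaphragm, and from -0.47 to 0.30 for Mstn, -0.32 to 0.018 for Gdf11 and -0.22 to 0.44 for Acvr2b against heart.

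No steady pairing of the samples by replicate number was seen. Such correlations cannot tell which tissues came from 1 mouse, since cell content also varied among the diaphragm and heart libraries. Same-numbered deviations correlated between genotypes at 0.01 to 0.11 in gastrocnemius, -0.79 to 0.62 in diaphragm, -0.61 to 0.35 in heart and -0.00 to 0.42 in liver. Between WT tissues they were all above 0 only for gastrocnemius with heart (0.02 to 0.21) and diaphragm with heart (0.02 to 0.21), in Mtm1-/y for diaphragm with liver (0.0038 to 0.22), and no tissue pair had every value over 0.1. With the replicate block Mstn in gastrocnemius was -1.71 (edgeR adjusted p = 0.00064), Fst 1.85 (0.0016) and Acvr1b -0.76 (0.0047). The block and limma voom ended the call on the Inhba difference from heart (1.64 and 1.63), and the block those on Smad4 and on Mtm1 in diaphragm (adjusted p = 0.57). The Acvr1b difference from heart was called by DESeq2, limma voom, the block (0.030) and edgeR with DESeq2 size factors (0.042). Over the alternatives and fits without a library, the members that differed between WT tissues numbered 3 to 9 of 9. Of the single-gene values under alternatives other than leaving out a library, 718 kept direction and call, 8 reversed, 15 gained a call and 18 lost it. The cause was not tested. Depth limits Mstn and Gdf11 in liver, with at most 1 and 4 reads a library, and Mstn in heart.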
